A study of Drosophila melanogaster with 6 samples.

Results

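The genes described here encode the trypsins, the Jonah serine peptidases and the digestive lysozymes of the fruit fly gut. They were taken by gene symbol from a list of 32 names, of which 28 had a row among the 13035 genes of the table. The rows cover 7 of 9 listed trypsins, 15 of 16 Jonah peptidases and 6 of 7 lysozymes. The trypsins gammaTry and deltaTry, the peptidase Jon66Cii and the lysozyme LysS were not analysed here.

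RNA-seq was done on whole male Drosophila melanogaster at day 6 of adult life, with 3 libraries per group. Both groups carried the same genotype, yw, hsFLP;; dERR[conditional] / dERR2, in which a conditional allele of the Estrogen-Related Receptor gene stands over the allele dERR2 and the recombinase FLP is driven by a heat shock promoter. Only the mutant group received heat, for 1 h at days 5 and 6 AEL, so loss of the receptor and the heat treatment itself cannot be told apart. The heat shock promoter is not restricted to a cell type, and the labels do not say whether flies were pooled or whether libraries came from separate cultures, so p-values measure only the spread between these libraries.

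Trypsins cut proteins after basic residues, and the Jonah peptidases are chymotrypsin-like relatives named after the chromosome bands that hold them. Both are made by enterocytes, the absorptive cells of the midgut, as secreted precursors that break down dietary protein. Lysozymes of the chicken type cut the peptidoglycan of bacterial walls, and in the fly several of them act in the gut, where bacteria and yeasts are part of the food. Most members of the 3 families sit in tandem gene clusters, so close copies lie side by side, and reads of near-identical members may be split between them.

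The target gene ERR was at 373, 497 and 539 normalized counts in controls, and at 112, 119 and 107 in mutants, a log2 change of -2.03 ± 0.13 (SE). Worked out from the steps between normalized counts, total reads assigned to genes were from 13987814 to 16102936 per library, an estimate that could not be checked where a step was close to 1. The groups were compared on log2(normalized count + 1), with limma and adjustment over all genes, and a gene is said to have risen or fallen where the adjusted p was under 0.05. The label of whole male flies was checked on 11 genes of other tissues. The opsin ninaE of the eye was at 88997 ± 2254 counts in control and 80775 ± 3847 in mutant flies (SD, n = 3 each), and the sperm gene Mst87F at 6489 ± 513 and 8007 ± 916. The female yolk genes Yp1 and Yp2 had at most 23.2 counts in any library. The yolk gene Yp3 was higher, at 150 to 193 counts in control and 85.2 to 126 in mutant libraries. In such bulk RNA, fewer gut cells of a type and less RNA per cell cannot be told apart.

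Markers of other tissues moved with the groups too, and their part in the gut gene results was not tested. Of the 11 genes 4 fell and 1 rose, beside 9.47% and 4.73% of all genes. The fat body storage protein gene Lsp2 fell from 1727 ± 474 to 37.5 ± 21.0 counts (SD, n = 3 each). The seminal fluid genes Acp36DE (-1.45 ± 0.12) and Acp26Aa (-1.38 ± 0.09) and the yolk gene Yp3 (-0.62 ± 0.16) fell as well. The flight muscle actin Act88F rose from 1671 ± 131 to 7253 ± 792 counts. Summed, the list ran from 188215 to 201103 counts in control and from 157232 to 182684 in mutant libraries.

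Most of the peptidase genes were lower in mutant flies and most of the lysozyme genes were higher. Of the 28 genes 17 fell and 4 rose, whereas 9.47% of all genes fell and 4.73% rose. The falls were in 13 of 15 Jonah peptidases and 4 of 7 trypsins, and the rises were in 4 of 6 lysozymes. The median log2 change was -0.93 for the Jonah peptidases, -0.57 for the trypsins and 0.38 for the lysozymes, against 0.00 over all genes. In 16 of the 28 genes every mutant library was below every control library, which held for 16.9% of all genes. In 6 of them every mutant library was above, compared with 15.7% of all genes. By the authors' deposited table, 15 of the 28 were lower at an adjusted p under 0.05 and 4 higher, beside 9.04% and 4.49% of the genes with an adjusted p there.

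**Figure D1:**
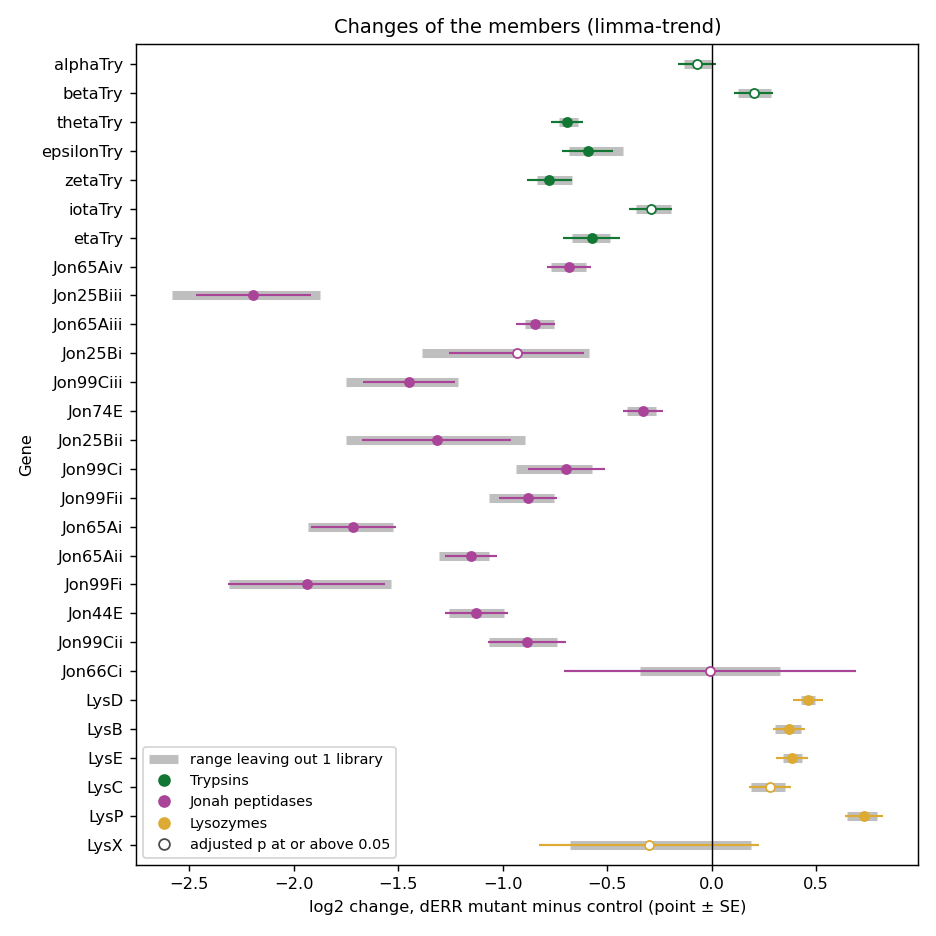
Log2 change of each of the 28 genes, mutant minus control (x axis, points with bars of 1 standard error), coloured by family. Filled points passed the adjusted p threshold of 0.05 and open points did not. The Jonah peptidases lie between -2.20 and -0.01 and the lysozymes between -0.30 and 0.73.

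These counts depend in part on how libraries are scaled. When libraries were scaled to their table totals, 16 of the 28 fell and 6 rose, and over all genes 992 fell and 1293 rose in place of 1234 and 617. With quantile normalization the numbers over all genes were 1080 and 919, and 17 and 5 of the 28. Scaling to the 76 ribosomal protein genes shifted the median of all genes by -0.16 and gave 19 falls and 2 rises of the 28, with 2054 falls and 208 rises over all genes. The remaining rises of that scaling were those of LysD and LysP. By the authors' scaling 0 of the 76 passed in limma (0 lower and 32 higher at an unadjusted p under 0.05, 0 by limma-voom), and RpL3 and RpL5 were at 0.14 ± 0.08 and 0.15 ± 0.08. The share of all genes at an unadjusted p under 0.05 was not counted. Counts at that threshold, here and below, thus have no background beside them.

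**Figure D2:**
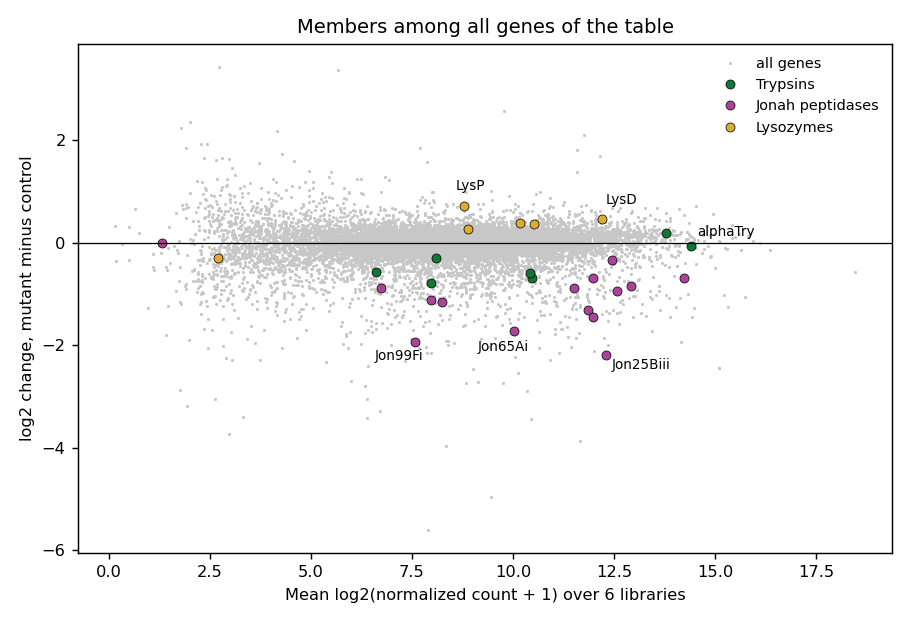
Log2 change (y axis, mutant minus control) against the mean log2(normalized count + 1) over the 6 libraries (x axis) for all 13035 genes in grey, with the 28 gut genes in colour. Most Jonah peptidases lie below 0, alphaTry at -0.07 and betaTry at 0.20 lie near 0 at high levels, and the lysozymes other than LysX lie above 0, from 0.28 to 0.73.

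The trypsin cluster on chromosome arm 2R (7226691 to 7245042, dm3) held all 7 trypsins, whose changes ran from -0.78 to 0.20 on the log2 scale. The abundant alphaTry had 22532, 21369 and 22506 normalized counts in control flies and 23016, 19255 and 21177 in mutant flies. The groups overlapped, and the log2 change of -0.07 ± 0.09 did not pass (adjusted p = 0.687). Its sign turned to 0.02 with scaling to table totals and to 0.07 with quantile normalization. The second abundant trypsin, betaTry, had 13431, 12638 and 13423 counts in control flies against 16755, 13439 and 15333 in mutant flies. All mutant libraries of betaTry were above the controls, the nearest by a narrow margin, and its log2 change was 0.20 ± 0.09 (adjusted p = 0.202). It passed with scaling to table totals (adjusted p = 0.0399) and with quantile normalization (adjusted p = 0.0173).

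Of the less abundant trypsins, 4 fell, namely thetaTry, zetaTry, epsilonTry and etaTry. ThetaTry had 1804, 1868 and 1721 counts in control flies and 1133, 1035 and 1169 in mutant flies. Its groups lay far apart, with a log2 change of -0.69 ± 0.07 (adjusted p = 1.02e-04). ZetaTry went from 306, 303 and 383 to 197, 187 and 190 counts, a log2 change of -0.78 ± 0.11 (adjusted p = 6.04e-04), the lowest of the family. EpsilonTry, whose row lies between alphaTry and betaTry, had 1643, 1786 and 1674 counts in control flies and 1275, 891 and 1255 in mutant flies (-0.59 ± 0.12, adjusted p = 0.00767). EtaTry was lower by a smaller margin, at 105 to 135 counts against 73.7 to 88.5 (-0.57 ± 0.14, adjusted p = 0.0160), and its call was lost without control replicate 1, control replicate 3 or mutant replicate 3 (adjusted p = 0.0709, 0.0609 and 0.0655). The remaining trypsin of the cluster, iotaTry, had 274 to 345 counts in control and 236 to 253 in mutant flies without overlap, and its log2 change of -0.29 ± 0.10 did not pass (adjusted p = 0.0918).

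Summed over the family, the 2 most abundant copies carried most of the trypsin reads. AlphaTry and betaTry made up 56.0% and 33.3% of trypsin counts in control flies and 54.1% and 38.8% in mutant flies. The family sum was 39552 ± 1033 in control and 39096 ± 3791 in mutant flies (SD, n = 3 each), or -0.02 ± 0.10 on the log2 scale for the summed cluster (adjusted p = 0.920). Without those 2 genes the sum was 4252 ± 95.8 in control and 2771 ± 275 in mutant flies. The ratio of alphaTry to betaTry within a library is not affected by scaling with 1 size factor per library. It was 1.68, 1.69 and 1.68 in control libraries and 1.37, 1.43 and 1.38 in mutant libraries. The groups of ratios lay clear of each other, with a log2 difference of -0.27. The ratio of thetaTry to epsilonTry, at 1.03 to 1.10 in control and 0.889 to 1.16 in mutant libraries, overlapped.

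**Figure D3:**
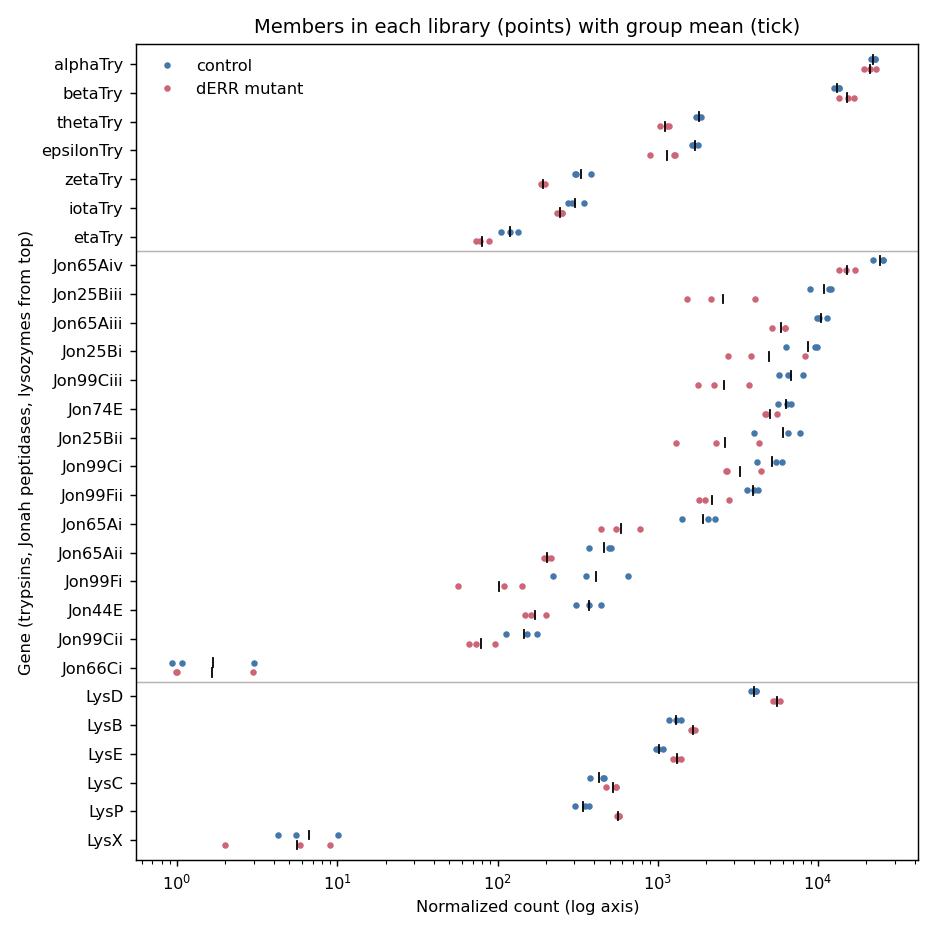
Normalized counts (log axis) of each of the 28 genes in the 3 control and the 3 mutant libraries, 1 point per library. The 3 Jon25B genes spread widely among the mutant libraries, whereas thetaTry and LysP form tight, separate groups.

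The Jonah peptidases carried the larger falls, and the strongest was in the Jon25B cluster on 2L (4949941 to 4955144, dm3). Jon25Biii had 8925, 11659 and 12070 counts in control libraries and 4041, 1515 and 2134 in mutant libraries. Its mutant mean was 23.5% of the control mean, a log2 change of -2.20 ± 0.27 (adjusted p = 2.98e-04). Jon25Bii had 3955, 6501 and 7728 counts in control and 4288, 1304 and 2302 in mutant libraries. Mutant replicate 1 was above the lowest control, and the log2 change was -1.32 ± 0.36 (adjusted p = 0.0311). The call of Jon25Bii was lost without control replicate 2 or 3 and without mutant replicate 2 or 3 (adjusted p = 0.0883, 0.137, 0.0748 and 0.0809). It was also lost with a robust variance prior (adjusted p = 0.242), and in the authors' deposited table its adjusted p was 0.156.

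Jon25Bi, at the other end of the trio, had 6345, 9895 and 9601 counts in control and 8276, 2730 and 3819 in mutant libraries. Here too mutant replicate 1 lay within the control range, and the log2 change of -0.93 ± 0.32 did not pass (adjusted p = 0.0850). Without that library it was -1.39 (adjusted p = 7.28e-04). The ratio of Jon25Biii to Jon25Bi was 1.41, 1.18 and 1.26 in control and 0.488, 0.555 and 0.559 in mutant libraries. So within each mutant library, replicate 1 included, Jon25Biii was the lower of the pair, and within each control library the higher. Ratios were taken for all 44 pairs of members within a cluster that had at least 20 counts each, and the ones given were picked after their values were seen. With 3 libraries against 3 the exact two-sided permutation p cannot go below 0.1, or 0.176 adjusted over the pairs, which is the value of each ratio described here as lying clear of the other group.

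The Jon65A cluster on 3L (6032255 to 6047543, dm3) held 4 genes, which all fell, and the size of the fall rose along the cluster. Jon65Aiv, the most abundant Jonah gene, had 22055, 25382 and 25245 counts in control and 17081, 13472 and 14888 in mutant libraries (-0.68 ± 0.11, adjusted p = 0.00122). Next to it came Jon65Aiii, with 9914, 11349 and 10139 counts against 6218, 5130 and 6180 (-0.84 ± 0.09, adjusted p = 1.37e-04). The groups of both genes were well apart. Jon65Aii had 369 to 514 counts in control and 194 to 216 in mutant libraries, and its mutant mean was 44.4% of control. Jon65Ai, last in the row, went from 1423, 2282 and 2068 to 778, 551 and 441 counts, so its mutant mean was 30.7% of control. The ratio of Jon65Aiv to Jon65Ai was 11.1 to 15.5 in control and 22.0 to 33.8 in mutant libraries, so the abundance of these neighbours did not fall in proportion.

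The Jon99C and Jon99F genes on 3R followed the same direction. Jon99Ciii (25747938 to 25748774, dm3) had 5738, 8094 and 6534 counts in control and 3730, 1781 and 2243 in mutant libraries (-1.45 ± 0.22, adjusted p = 0.00113). Its neighbour Jon99Ci, with 4170, 5913 and 5490 counts against 4426, 2697 and 2668, overlapped between groups through mutant replicate 1. Its log2 change of -0.70 ± 0.19 passed (adjusted p = 0.0291), and was lost without control replicate 2 or 3 and without mutant replicate 2 or 3 (adjusted p = 0.0976, 0.115, 0.0964 and 0.110). In the authors' deposited table Jon99Ci had an adjusted p of 0.133. The ratio of Jon99Ciii to Jon99Ci was 1.38, 1.37 and 1.19 in control and 0.843, 0.660 and 0.841 in mutant libraries. Jon99Cii, the scarce member between them, had 112 to 177 counts in control and 66.6 to 95.9 in mutant libraries (-0.88 ± 0.19).

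Jon99Fii had 3611, 4007 and 4196 counts in control and 2762, 1798 and 1961 in mutant libraries (-0.88 ± 0.14, adjusted p = 0.00130). Jon99Fi was less abundant and varied more, at 221, 650 and 354 counts in control and 142, 109 and 56.7 in mutant libraries. Its groups did not overlap and its log2 change was -1.94 ± 0.37 (adjusted p = 0.00490), which with a robust variance prior no longer passed (adjusted p = 0.119), nor did those of Jon99Ciii and Jon99Ci (adjusted p = 0.0533 and 0.150).

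Of the 3 Jonah genes with no other member near them in the table, Jon44E on 2R fell from 308 to 444 counts in control to 147 to 202 in mutant libraries (-1.13 ± 0.15, adjusted p = 4.37e-04). Jon74E on 3L, at 6813, 6397 and 5631 against 4750, 4688 and 5570 counts, changed least among the called peptidases (-0.33 ± 0.10, adjusted p = 0.0428). Its groups were separated by a small gap, and its call was lost without control replicate 1 or 2 and without mutant replicate 1 or 2 (adjusted p = 0.135, 0.112, 0.130 and 0.124). Scaling to table totals and upper-quartile scaling also ended it (adjusted p = 0.0955 and 0.0676). Jon66Ci was near the limit of detection, with 0.926 to 3.02 normalized counts per library in both groups, and no change can be read from it.

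**Figure D4:**
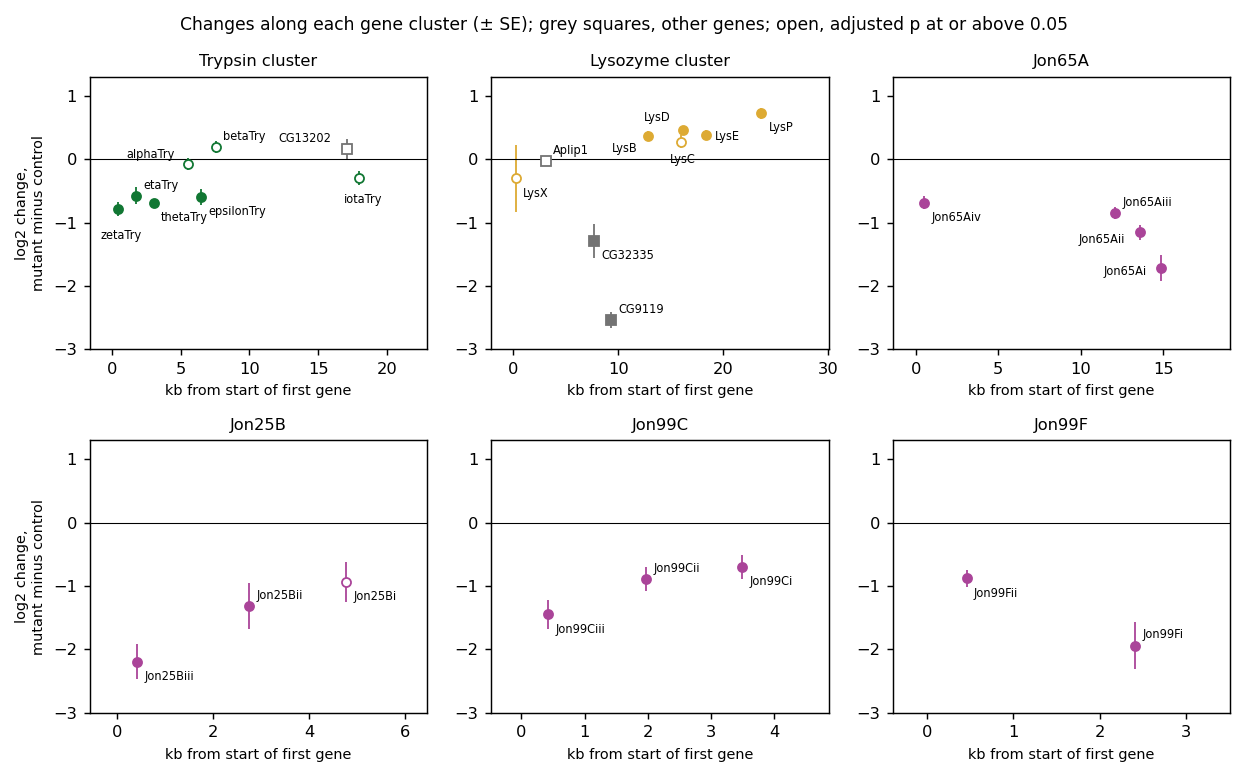
Log2 change (y axis, mutant minus control, bars of 1 standard error) of each gene along the 6 clusters, against the distance of its midpoint from the start of the first gene (x axis, kb). Filled symbols passed the adjusted p threshold, and grey squares are unrelated genes between the members. The falls grow from Jon65Aiv at -0.68 to Jon65Ai at -1.72, and CG9119 at -2.54 lies next to lysozymes that rose.

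The lysozyme genes are strung along 3L (1194739 to 1218696, dm3). LysP had 373, 351 and 304 counts in control and 559, 571 and 568 in mutant libraries. Its mutant libraries were close together and clear of the controls, with a log2 change of 0.73 ± 0.09 (adjusted p = 2.93e-04). In the fly LysP is known as a lysozyme of the salivary gland, while LysB, LysD and LysE are expressed in the midgut. LysD, the most abundant, went from 4109, 4085 and 3824 to 5776, 5257 and 5499 counts (0.46 ± 0.07, adjusted p = 0.00130).

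LysB rose from 1392, 1301 and 1175 to 1707, 1661 and 1620 counts (0.37 ± 0.08, adjusted p = 0.00859). LysE rose from 1073, 970 and 996 to 1325, 1240 and 1404 counts (0.38 ± 0.08, adjusted p = 0.00610). With scaling to ribosomal protein genes LysB and LysE did not pass, at 0.21 (adjusted p = 0.111) and 0.23 (adjusted p = 0.132). LysC had 379 to 461 counts in control and 474 to 551 in mutant libraries without overlap, but its log2 change of 0.28 ± 0.10 did not pass (adjusted p = 0.103). LysX had 4.27 to 10.1 counts in control and 1.99 to 8.96 in mutant libraries, too few to compare.

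LysP stood apart from the other lysozymes in its ratios. The ratio of LysD to LysP was 11.7 ± 0.778 in control and 9.74 ± 0.565 in mutant libraries (SD, n = 3 each) without overlap, and that of LysB to LysP was 3.71 to 3.86 and 2.85 to 3.05. The ratio of LysB to LysE, at 1.18 to 1.34 and 1.15 to 1.34, overlapped almost in full.

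Some lysozyme values are uncertain, because their rows overlap those of other genes and it is not stated whether the counting used strand. LysB, LysC, LysD, LysE and LysP all lie within the span of multiple wing hairs (mwh), whose level was 5.37% of that of LysD and 56.2% of that of LysP. The mwh row itself changed by 0.15 ± 0.12 (adjusted p = 0.490). LysC shares 255 bases with LysD on the opposite strand and the level of LysD was 995% of its own, and the RefSeq reference lists LysC as a pseudogene.

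Unrelated genes inside the clusters had changes of their own. CG9119, between LysX and LysB, had 2852, 2379 and 2825 counts in control and 567, 437 and 392 in mutant libraries, a log2 change of -2.54 ± 0.13 (adjusted p = 5.17e-07). Its neighbour CG32335 fell as well (-1.28 ± 0.27, adjusted p = 0.00756), from 27.8 to 37.3 counts to 9.94 to 17.6. Aplip1, a kinesin adaptor on the LysX side, was at -0.03 ± 0.08 (adjusted p = 0.861), and CG13202 in the trypsin cluster at 0.16 ± 0.16 (adjusted p = 0.593). The mean of CG9119 thus went from 2685 to 465 counts, while that of LysB, the next lysozyme along the arm, went from 1289 to 1663.

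When members at most 20 kb apart were summed and counted as 1 cluster, 9 clusters or single genes remained, of which 6 fell and 1 rose. Among all genes, taken singly with all libraries, 9.47% fell and 4.73% rose. The summed Jon25B genes changed by -1.46 ± 0.31 (adjusted p = 0.00933) and the Jon99C genes by -1.07 ± 0.20 (adjusted p = 0.00368). Jon99F and Jon65A were at -0.95 ± 0.14 and -0.77 ± 0.11, and the lysozymes at 0.44 ± 0.07 (adjusted p = 0.00222). Such a sum does not depend on how reads were divided among the copies summed. It can still depend on reads shared with copies that had no row, or with overlapping rows such as mwh.

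As a share of all counts in the table, the 28 genes together took 0.878% ± 0.072 in control and 0.660% ± 0.090 in mutant libraries (SD, n = 3 each). The Jonah genes took 0.569% ± 0.075 in control and 0.318% ± 0.069 in mutant libraries. Trypsins took 0.262% ± 0.0045 and 0.275% ± 0.021, and lysozymes 0.0470% ± 0.0023 and 0.0674% ± 0.00069.

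**Figure D5:**
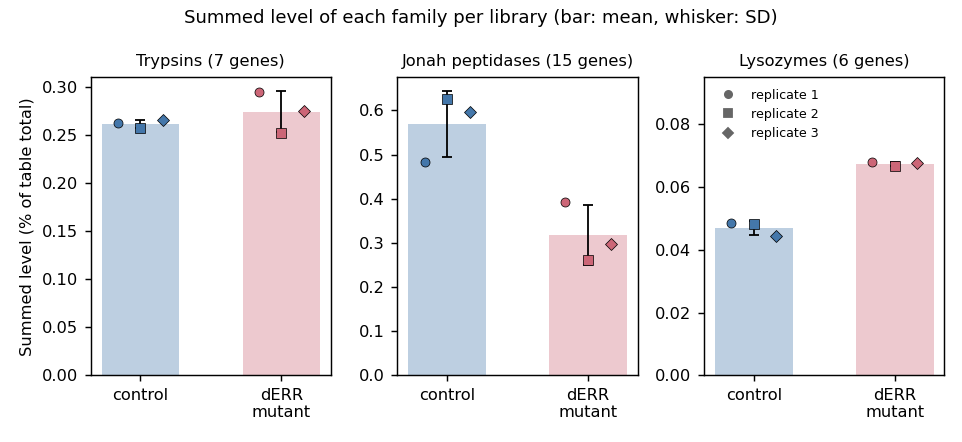
Summed counts of each family as a percent of all counts in the table, 1 point per library, with the mean and SD of each group. Every mutant point of the Jonah sum lies below the control points, and every mutant point of the lysozyme sum above them.

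Levels were compared between genes per kilobase of exon. In control flies the highest means were those of Jon65Aiv at 26800 normalized counts per kb and alphaTry at 25739, whose library ranges overlapped. Jon25Biii stood at 13162 and Jon65Aiii at 11962, again with overlapping ranges. In mutant flies alphaTry was at 24592, Jon65Aiv at 16755, Jon65Aiii at 6677 and Jon25Biii at 3099. LysD was at 8345 per kb in control and 11480 in mutant flies, which took it from rank 7 to rank 4, and Jon25Biii came to rank 9 in mutant flies. The reference exon lengths, from a later build, differ from the deposited rows for several genes. For betaTry the level was 12291 per kb in control and 14169 in mutant flies over the reference exons, and 16414 and 18922 over the deposited row. Its place against Jon25Biii in control and against Jon65Aiv in mutant flies turned with that choice. So did the order of Jon65Aiv and alphaTry in control flies, at 24696 and 25739 over the deposited rows. The ranks given for LysD and Jon25Biii did not turn. LysC was left out, since the reference lists only a shorter pseudogene there.

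Several Jonah genes also varied widely within a group, and in the same libraries. In mutant libraries the coefficient of variation was 51.4% to 59.5% for the Jon25B trio, 39.4% for Jon99Ciii and 30.8% for Jon99Ci, compared with 6.25% for thetaTry and 1.11% for LysP. Mutant replicate 1 was the highest mutant library for 12 of 15 Jonah genes and replicate 2 the lowest for 10. Among controls, replicate 1 was the lowest for 12 of the 15. The summed Jonah counts were 74022, 93225 and 90058 in control and 56968, 36239 and 42688 in mutant libraries. In mutant replicate 1 that sum was 1.26 times its group mean, the summed other serine peptidases were 1.15 times theirs and the carboxypeptidases 1.02 times. Without mutant replicate 1, 17 of the 28 genes fell and 4 rose, the same numbers as with all libraries. The genes were not all the same, since Jon25Bi then passed and Jon74E did not.

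Related enzymes were counted from lists written from memory of the gene families. The tissue of each listed gene was not checked, so in whole flies their values need not come from the gut. Of 54 further trypsin-like serine peptidases with a row (84 listed), 23 fell and 4 rose, beside 9.47% and 4.73% of all genes. The median of the 54 was -0.39. Among those that fell were CG17242, from 4128 ± 442 to 1541 ± 306 counts (SD, n = 3 each), and CG11912, from 139 ± 1.91 to 48.5 ± 6.12. CG11037 and CG10472 fell by 0.77 and 0.75 on the log2 scale. Those that rose were CG7142 (1.38 ± 0.19), Try29F (0.89 ± 0.20), CG7829 (0.66 ± 0.16) and CG8329 (0.47 ± 0.10). Without control replicate 1 the number that fell was 15, and without mutant replicate 2 the number that rose was 2.

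Carboxypeptidases, which trim amino acids from the ends of peptides, had 7 of 12 lower, against 9.47% of all genes, and 0 higher (0 at an unadjusted p under 0.05 and 0 by limma-voom) and a median of -0.44. CG12374 had 36113 ± 5884 counts in control and 14959 ± 2478 in mutant flies (SD, n = 3 each). Its log2 change was -1.27 ± 0.14. CG17633 (-1.29 ± 0.12), CG18417 (-1.13 ± 0.12) and CG8562 (-0.96 ± 0.11) fell as well. Of 7 aspartic peptidases 0 passed in limma, with 3 lower at an unadjusted p under 0.05 and 0 by limma-voom. The most abundant of them, Bace, was at -0.36 ± 0.12 (adjusted p = 0.0737) and the lysosomal cathepsin cathD at -0.21 ± 0.07 (adjusted p = 0.0982).

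Of 8 lysozymes outside the cluster with a row, 3 fell, 5 did not pass and 0 rose (1 higher at an unadjusted p under 0.05, 0 by limma-voom), with a median of -0.32. Among all genes 9.47% fell. Of those that did not pass, CG6421 was at 0.41 and CG6435 at 0.10 (log2), both named after their values were seen. CG16756 went from 331 ± 13.2 to 101 ± 3.73 counts (SD, n = 3 each), or by -1.71 ± 0.10 (adjusted p = 1.25e-06). CG6426 (-0.61 ± 0.10) and CG16799 (-0.46 ± 0.08) fell as well.

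Few markers of gut cells passed the test. The tissue of each listed gene was not checked, so in whole-fly RNA the values of these markers may include other tissues. Of 5 enterocyte markers with a row (8 listed) 0 passed in limma (1 lower and 1 higher at an unadjusted p under 0.05, 0 by limma-voom). Their summed counts ran from 4540 to 5923 in control and from 4450 to 4718 in mutant libraries. The brush border myosins Myo61F and Myo31DF were at -0.19 ± 0.11 and -0.12 ± 0.07. The remaining enterocyte markers were mex1 at -0.24 ± 0.10, nub at 0.39 ± 0.16 and Npc1b at -0.66 ± 0.39. The median of the enterocyte markers was -0.19. Of 3 markers of gut progenitors 0 passed (0 at an unadjusted p under 0.05 and 0 by limma-voom), with sums of 220 to 238 and 226 to 239, and Dl and esg were at 0.02 ± 0.11 and 0.06 ± 0.13. Salivary gland markers, given beside LysP, had 0 of 4 past the threshold (0 at an unadjusted p under 0.05 and 0 by limma-voom), and sums of 1609 to 1751 in control and 1396 to 1743 in mutant libraries. CrebA was at -0.07 ± 0.09 and fkh at -0.15 ± 0.11. The list also held sage at 0.15 ± 0.17 and PH4alphaSG2 at 0.98 ± 0.60, the latter at means of 2.02 and 5.26 counts. The list median was 0.04.

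Other gut lists had a few falls each, beside 9.47% of all genes that fell. The tissue of the genes in these lists was not checked either. The peritrophic matrix lines the midgut, and 3 of 9 of its genes fell, namely Muc68Ca (-1.17 ± 0.28), Peritrophin-15a (-0.83 ± 0.23) and Mur29B (-0.59 ± 0.17). The rest did not pass. Peritrophin-15b was at -0.75, Muc68E at -0.25 and the most abundant, Muc68D, at 0.02. Peritrophin-A was at 0.25, CG7298 at 0.44 and CG7017 at 1.86, the last at means of 1.28 and 6.26 counts. At an unadjusted p under 0.05, 4 of the 9 were lower and 1 higher, and by limma-voom 3 and 1. The number of the 9 that fell was 0 without control replicate 3 and 1 without control replicate 2, mutant replicate 1 or mutant replicate 2. In the enteroendocrine list 1 of 5 fell, the peptide hormone gene CCHa2 (-1.09 ± 0.13), which is also made in fat body. The summed list ran from 3123 to 3831 in control and from 2313 to 2860 in mutant libraries. Within that sum CCHa2 went from a mean of 1408 to 665 counts. The remaining genes pros, Tk, Dh31 and CCHa1 were at -0.07, -0.02, 0.01 and 0.13 and did not pass. The acid-secreting copper cells were represented by 4 genes, of which the proton pump subunit Vha100-4 fell (-0.48 ± 0.09), with sums of 1570 to 1741 and 1186 to 1461. Among 11 transcription factors and signals that pattern the midgut, Ptx1 (-0.55 ± 0.13) and sugarbabe, sug (-0.40 ± 0.10), fell. At an unadjusted p under 0.05, 2 of the 11 were lower and 2 higher, and by limma-voom 2 and 0. The regulators that did not pass ran from -0.28 (dve) to 0.39 (nub). Among them was GATAe, which drives many intestinal enzyme genes, at 0.26. The number of the 11 that fell was 1 without control replicate 1, mutant replicate 1 or mutant replicate 3. What part these markers had in the peptidase and lysozyme results was not tested.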

How the data were processed

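For 6 libraries, poly(A) RNA entered a stranded library kit, per the labels' protocols. Novoalign, DESeq2 and the build dm3 are named, without versions, per the submitters' processing notes. How reads were counted, with which annotation and whether by strand, is not stated in these sources. Deposited by the authors is 1 table of 13035 genes with a signal per library: normalized counts, which by their values are reads divided by 1 size factor per library (every value a whole multiple of a constant, tolerance 1e-06). Further columns give, per the file headers, the authors' log2 fold changes, a test statistic (a score per gene), p-values and adjusted p-values in DESeq2's format. The recovered reads could not be accepted as counts in 3 columns, so no count model was fitted.

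The comparison used limma-trend (limma 3.58.1, R 4.3.3) on log2(normalized count + 1), which understates changes of scarce genes. All 6 libraries entered with a group term only and no filter, and p-values were adjusted by Benjamini-Hochberg over 13035 genes (threshold 0.05). The method was tested on simulated data. Cluster sums, within-library ratios (exact two-sided permutation test) and values per kb of exon were made in Python 3.11.15 (numpy 2.4.6, pandas 2.3.3, matplotlib 3.10.9). Deposited starts count from 0 and are given here from 1, on dm3, while exon lengths and names came from a reference on a later build. Within groups, chi-square per gene between libraries was 7.35 to 14.14, where sampling alone gives 1, so none was counted as a repeat.

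The members, the related lists and the tests were chosen with earlier results of these data known. All members are named or counted. Of each related list, up to 4 genes per direction with the smallest adjusted p are named, or the 2 most abundant where none passed, plus genes between or overlapping members. The tissue check also names ninaE, Mst87F, Yp1 and Yp2, chosen after their values were seen. The remaining genes of the salivary gland, enteroendocrine, enterocyte and peritrophic matrix lists were likewise named after their values were seen. So were GATAe, dve and nub among the midgut regulators. Alternatives were other pseudocounts, filters, scalings, variance models, cluster sums and the omission of each library. No sequences were used here.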

Additional observations from a re-analysis of the deposited data

How the results depend on the processing

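Of 418 recomputed values of single members, 379 kept their direction and their side of the threshold, 23 lost their call, 6 gained one and 10 changed sign, none of these 10 in a gene called with all libraries. Those with a changed sign were alphaTry (0.0170 with scaling to table totals, 0.0748 with quantile normalization), Jon66Ci (0.0443, 0.0169 and 0.15 with table totals, upper-quartile and quantile scaling, and from -0.343 to 0.328 with 1 library left out) and LysX (from -0.680 to 0.189 with 1 library left out). The cause of the shifts that follow was not tested. Scaling to ribosomal protein genes gave 2 members higher, a members' median of -0.84, and 2054 genes lower and 208 higher over the table. It also gave 3 aspartic peptidases, 4 midgut regulators, 1 enterocyte marker and 2 copper cell markers lower. Scaling to table totals gave 1293 genes higher over the table and 1 midgut regulator lower. The filter on low values (a mean CPM of at least 5) left 2 other serine peptidases higher. Quantile normalization, limma-voom and a robust variance prior each gave 1 peritrophic matrix gene higher, and the robust prior 1 lower, 1 aspartic peptidase lower and 13 members lower. Cluster sums, added after the data were seen, gave 6 lower and 1 higher, from fewer units. Row lengths for levels per kb were likewise added after the data were seen. With each library left out in turn, 14 to 17 members were lower and 4 to 4 higher, with a median of -0.74 to -0.59. Over all genes 926 to 1139 were lower and 330 (without control replicate 3) to 563 higher. For other serine peptidases 15 to 22 were lower and 2 to 4 higher, for carboxypeptidases 7 lower throughout and for other lysozymes 3. Midgut regulators had 1 to 2 lower, peritrophic genes 0 to 3 lower and 0 to 1 higher, and enterocyte markers and aspartic peptidases 0 to 1 lower each.

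Summing members with near-identical proteins and searching promoters for motifs were planned and not run, because no sequences were used here. No paired analysis was possible because the labels carry no replicate numbers: those used here were given in accession order, only name a library and pair none. With 3 libraries per group, and few reads for Jon66Ci and LysX, small changes are not detectable at this depth.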
